A study of Mus musculus with 15 samples.

Results

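Acid injected into muscle was compared with saline injected into muscle in large sensory neurons of mouse dorsal root ganglia. The comparison used 6 of the 15 microarrays of the study, chosen by sample title: 3 titled as acid muscle injected and 3 as saline muscle injected. All 6 samples came from C57BL/6 mice in which a green fluorescent reporter was inserted under the CGRP promoter. CGRP, calcitonin gene-related peptide, is made by many nociceptors, so the reporter marks them. The neurons came from the lumbar 2 to 5 ganglia of the experimental side, and a cell sorter took those over 26.9 µm that were negative for the reporter. Wheat germ agglutinin labelled with AF647, a retrograde tracer put into the gastrocnemius muscle or the saphenous nerve 5 days before the mice were killed, marked the target of each neuron, and all 6 samples are labelled as projecting to muscle. In each sample 50 ng of RNA was amplified for an Affymetrix whole-transcript array. The pH, the dose, the injected muscle and the time after injection are not given in the sources used here, nor is the number of mice behind a sample. The study calls the 3 arrays of a group biological replicates. A further 3 arrays of the same kind of neuron, from mice that received complete Freund's adjuvant in the muscle (CFA muscle), an oil emulsion with killed mycobacteria that causes inflammation, are set beside the acid arrays. The remaining 6 arrays were of CGRP-positive neurons projecting to skin, titled as CFA or saline paw injected. They entered no comparison, but helped to set the estimate of the spread, the probe set used for each gene and the level under which a gene is called dim.

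Muscle pain can be evoked in animals by injecting acid, and protons act on sensory endings through several families of proteins. Acid-sensing ion channels (ASICs) are sodium-conducting channels that open when the pH outside the cell falls. The heat and capsaicin receptor TRPV1 is also opened by strong acid, some G protein-coupled receptors are switched on by protons, and several background potassium channels are closed by them. Muscle is supplied by large myelinated neurons, among them the proprioceptors of spindles and tendon organs, and by thin fibres that respond to metabolites, pressure and damage.

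The data are log2 expression values, in which a difference of 1 is a change of 2-fold, for 19938 genes with 1 probe set each. The labelled cells were checked on their markers. Transcripts of sensory neurons were high on all 6 arrays, with Avil (advillin) at 7.62, 6.96 and 7.30 in the acid muscle samples and 7.43, 7.54 and 7.08 in the saline muscle samples. Nefh, the heavy neurofilament of large myelinated neurons, stood between 8.83 and 9.60 in the acid muscle samples and between 8.97 and 9.76 in the saline muscle samples. The samples were not free of other cells or of small neurons. Mrgprd, a receptor of small non-peptidergic neurons, stood between 6.75 and 7.33 in the acid muscle samples and between 6.75 and 7.47 in the saline muscle samples, and Fabp7, a satellite glia gene, stood between 8.49 and 9.68 in the acid muscle samples and between 8.62 and 9.51 in the saline muscle samples. Calcb, which encodes the beta form of CGRP, was at 5.92, 5.65 and 5.58 in the acid muscle samples and 5.93, 6.25 and 5.87 in the saline muscle samples, above the dim limit. That limit, 2.44, is the 95% point of the levels of odorant and pheromone receptor genes, which sensory ganglia are not known to use widely. Markers of macrophages were at or near that limit, with Csf1r at 2.80 to 3.18 in the acid muscle samples and 2.66 to 3.06 in the saline muscle samples, and Cx3cr1 and Aif1 at 1.86 to 2.69 in the acid muscle samples and 1.78 to 2.39 in the saline muscle samples. Of 30 macrophage markers 11 were above the limit, and their mean level was 2.44 to 2.58 in the acid muscle samples and 2.41 to 2.53 in the saline muscle samples.

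Some arrays stood apart within their group. Acid muscle replicate 2 had the smallest SD over the genes of all muscle arrays (1.28), and it lay farthest out on the leading component of the muscle arrays, which held 31.7% of their variance. Saline muscle replicate 3 lay next to it on that component, with an SD of 1.34. Acid muscle replicate 3 had the largest SD among them, 1.55, and led the next component. Pearson correlations over all genes were 0.953 to 0.974 between acid muscle arrays, 0.962 to 0.980 between saline muscle arrays and 0.951 to 0.980 between the groups, so arrays of different groups were as alike as arrays of 1 group.

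No gene was shown to differ between acid muscle and saline muscle. In limma, fitted to all 15 arrays with 5 group means, 0 of 19938 genes (0%) had a Benjamini-Hochberg adjusted p under 0.05, and the smallest adjusted p was 0.99999. At an unadjusted p under 0.05 there were 568 genes (2.85%), of which 356 (1.79%) were higher and 212 (1.06%) lower in acid muscle, where 997 genes would lie if no gene differed and tests were independent. That count passed 997 under other settings, at 1447 with array SD in the model, 1215 with array weights and 1046 with quantile normalization, so it is not read as fewer than chance. With the arrays centred on their medians the split became 237 higher and 395 lower. The 2 groups did not overlap in 1380 genes (6.92%), with 794 (3.98%) higher and 586 (2.94%) lower. The same fit called 0 genes for CFA muscle against saline muscle, with 518 (2.6%) at an unadjusted p under 0.05, of which 1.39% of all genes were higher and 1.2% lower in CFA muscle. It called 0 genes for CFA muscle against acid muscle, with 626 (3.14%) at that p, 1.16% higher and 1.98% lower in CFA muscle.

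The size of what could have been missed is bounded by the intervals. Apart from the lowest and the highest 5% of genes, the differences ran from -0.32 to 0.33 on the log2 scale, and their median was 0.02. The median SE was 0.186, and the 95% interval of 18758 genes (94.1%) lay wholly within 1 log2 unit of 0, so that for these genes a change of 2-fold or more in the mean array signal fell outside the interval. Of the 19938 genes, 13705 were above the dim limit over the 6 arrays. For the others the interval bounds the signal and may not bound the transcript. With dim genes left out the median SE was 0.220. A difference past 1 log2 unit was seen in 3 genes (0.015%) higher in acid muscle and in 6 genes (0.0301%) lower. The 3 higher genes were Mrps10 and the non-coding RNAs Gas5 and Rmrp. Gas5 and Rmrp rested on acid muscle replicate 3, at 7.84 and 10.68, while the other acid muscle arrays read 5.29 and 4.43 for Gas5 and 7.38 and 6.13 for Rmrp, and the saline muscle arrays 4.58, 4.90 and 4.87 for Gas5 and 6.57, 6.67 and 7.48 for Rmrp. Among the 6 lower genes were Armh4, Slc35e3 and the predicted gene Gm4884 beside Kctd16, Mfsd11 and Il31ra. Armh4 (-1.08) and Slc35e3 (-1.01) had overlapping groups and rested on acid muscle replicate 2, without which they differed by -0.44 and -0.45, and Gm4884 was below the dim limit. The sign of the difference was the same without each of the 6 arrays in turn for 8962 genes (44.9%).

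**Figure D1:**
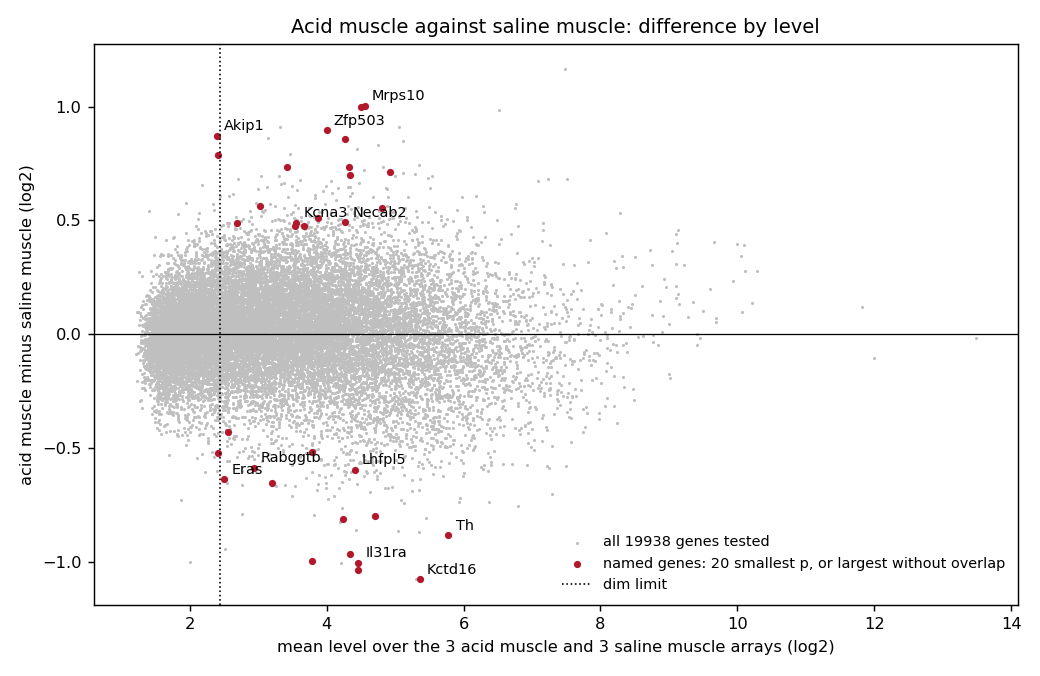
Difference between acid muscle and saline muscle (log2, y axis) against the mean level over the 6 arrays (log2, x axis) for all 19938 genes, with the dim limit of 2.44 as a dotted line. Red points are the genes named by rule, and labels mark some of them. Most genes lie within 0.5 of 0, and no gene passed the adjusted threshold.

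No gene that senses protons passed the test. Of 24 listed acid sensors 22 were measured and 16 were above the dim limit. None reached an unadjusted p under 0.05 in either direction, 12 had a positive and 10 a negative difference, and the median difference was 0.02, the same as over all genes tested. That median was -0.02 with the arrays centred. For 21 of the 22 the 95% interval lay within 1 log2 unit of 0, the exception being Trpv1.

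Among the ASICs, Asic3, the subunit most tied to muscle pain in rodent work, was at 4.65, 4.98 and 5.62 in the acid muscle samples and 5.47, 4.81 and 4.95 in the saline muscle samples. The groups overlapped, the difference was 0.01 and its interval ran from -0.74 to 0.75. Asic1, a subunit of channels that also pass calcium in some forms, was at 4.42, 4.58 and 4.53 in the acid muscle samples and 4.28, 4.41 and 4.32 in the saline muscle samples. The acid muscle samples were all higher, but by only 0.17 (interval -0.26 to 0.60), and it was the single acid sensor whose groups did not overlap. Asic2, which combines with other subunits, was at 5.80, 5.13 and 5.41 in the acid muscle samples and 6.07, 6.02 and 5.52 in the saline muscle samples. Its values overlapped, and the difference was -0.42 (-0.96 to 0.11), or -0.27 without acid muscle replicate 2. Asic4, which forms no proton-gated channel alone, had a difference of 0.10 (-0.35 to 0.55), with acid muscle samples at 4.26, 4.06 and 3.88 and saline muscle samples at 3.84, 3.67 and 4.40.

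Trpv1 had the largest difference of the acid sensors in either direction. Its values were 4.54, 4.64 and 3.97 in the acid muscle samples and 4.97, 5.40 and 4.60 in the saline muscle samples. Acid muscle replicate 2 was above saline muscle replicate 3, so that the groups overlapped, and the difference was -0.60 with an interval from -1.34 to 0.13. It ran from -0.80 to -0.40 without each array in turn. P2rx3, the ATP-gated channel of nociceptors that protons modulate, was at 7.19, 6.44 and 7.28 in the acid muscle samples and 7.06, 7.51 and 6.78 in the saline muscle samples, with a difference of -0.14. P2rx2, its partner subunit, differed by -0.03, and P2rx5 by 0.16. The potassium channel Kcnk3, which acid closes, was at 4.72, 4.53 and 4.61 in the acid muscle samples and 4.47, 4.23 and 4.54 in the saline muscle samples, a difference of 0.21 (-0.06 to 0.47) between overlapping groups. The proton-sensing receptors Gpr4, Gpr65 and Gpr132 were below or at the dim limit on most of these arrays, and their differences were -0.20, 0.23 and 0.13. Kcnk18, a background potassium channel of nociceptors, differed by 0.18.

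**Figure D2:**
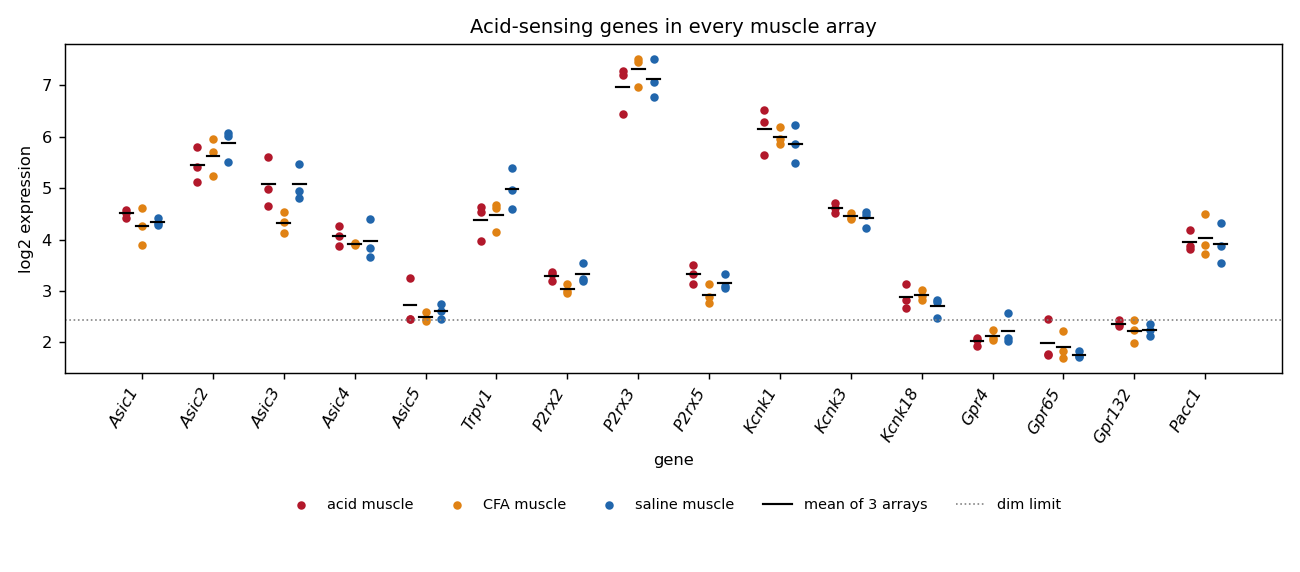
Log2 expression (y axis) of 16 acid-sensing genes (x axis) in each acid muscle, CFA muscle and saline muscle array, with a bar at the mean of 3 arrays and the dim limit dotted. Acid muscle and saline muscle points overlap for every gene shown except Asic1, and the CFA muscle points of Asic3 lie below those of both other groups.

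Regulation of pH and lactate transport showed as little. Of 40 measured genes, which include sodium-proton exchangers, bicarbonate transporters, carbonic anhydrases, subunits of the vacuolar proton pump and lactate transporters, 0 were at an unadjusted p under 0.05, and the median difference was 0.04. Slc16a7, a transporter of lactate and pyruvate, had the smallest p among them. It was at 2.95, 2.54 and 2.52 in the acid muscle samples and 3.54, 3.38 and 2.74 in the saline muscle samples, a difference of -0.55 (-1.17 to 0.07) with 1 acid muscle value above the lowest saline muscle value. Slc16a3, a lactate exporter of glycolytic tissue, differed by 0.24 (-0.19 to 0.67).

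The study's title turns on mechanosensitive proteins, so this group was described in the same way. Of 43 listed genes 38 were measured, with 19 positive and 19 negative differences and a median of -0.00. There was 1 gene at an unadjusted p under 0.05 in each direction, where 1.79% of all genes were higher and 1.06% lower at that p. Of the 38 intervals 35 lay within 1 log2 unit of 0. Piezo2, the main channel of touch and of proprioception, was at 6.48, 6.93 and 6.89 in the acid muscle samples and 7.30, 7.32 and 6.47 in the saline muscle samples. The groups overlapped, and its difference was -0.26 (-0.90 to 0.37), with -0.41 and -0.15 on its other probe sets and -0.54 without saline muscle replicate 3. Piezo1, a channel of vessels and other non-neuronal tissues, differed by -0.33 (-0.86 to 0.20), or -0.09 without acid muscle replicate 1, but its dimmer probe sets gave -0.16 and 0.37, so that the probe sets did not share a sign. Stoml3, a membrane protein that tunes mechanosensitive channels in mouse touch neurons, was at 3.14, 2.68 and 2.46 in the acid muscle samples and 2.64, 2.96 and 2.58 in the saline muscle samples, a difference of 0.03.

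Kcnk2 (TREK-1), a stretch- and acid-modulated background potassium channel, was the gene with a positive difference and a small p. It was at 4.07, 4.30 and 3.84 in the acid muscle samples and 3.79, 3.84 and 3.62 in the saline muscle samples. Its lowest acid muscle value lay beside its highest saline muscle value, and the difference was 0.32 (0.00 to 0.64), or 0.21 without acid muscle replicate 2. Its relatives Kcnk4 (TRAAK) and Kcnk10 (TREK-2) differed by 0.11 and -0.10. Stoml2, a mitochondrial relative of stomatin, was lower by value in every acid muscle sample, at 4.59, 3.59 and 4.44, against 4.99, 4.66 and 4.65 in the saline muscle samples, a difference of -0.56 that was -0.25 without acid muscle replicate 2. Trpc6, a cation channel, differed by -0.67 (-1.39 to 0.04), and that difference was -0.31 without acid muscle replicate 2. Trpa1, the irritant receptor, was at 4.37, 2.74 and 3.86 in the acid muscle samples and 3.89, 4.15 and 3.82 in the saline muscle samples, a difference of -0.29 that was 0.17 without acid muscle replicate 2.

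**Figure D3:**
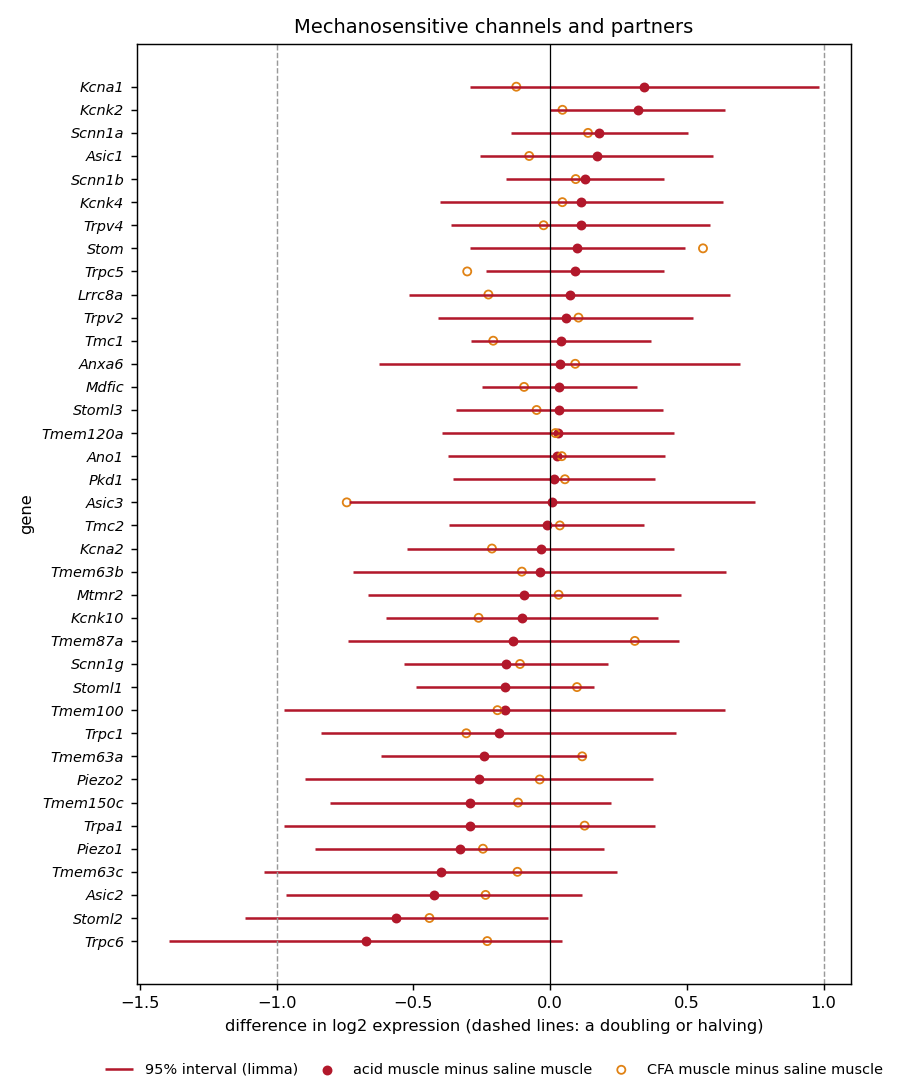
Difference in log2 expression (x axis) of 38 mechanosensitive channels and partners (y axis), with the 95% interval of acid muscle minus saline muscle in limma; open points are CFA muscle minus saline muscle. All intervals but those of Kcnk2 and Stoml2 include 0, and 35 of 38 lie between the dashed lines at -1 and 1.

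Channels that set the excitability of the neuron stood somewhat further apart by value, none past the threshold. Voltage-gated sodium channels had 12 negative and 2 positive differences among 14 measured genes and a median of -0.24, with 0 genes at an unadjusted p under 0.05. Without saline muscle replicate 3 the median was -0.49, and without saline muscle replicate 2 it was -0.11. Scn9a (Nav1.7), needed for pain signals, was at 6.78, 6.25 and 6.90 in the acid muscle samples and 7.46, 7.59 and 6.60 in the saline muscle samples. The groups overlapped through saline muscle replicate 3, and the difference was -0.58 (-1.30 to 0.15) and -0.57 on its other probe set. Without acid muscle replicate 2 it was -0.38, and without saline muscle replicate 3 it was -0.88. Potassium channels had a median of -0.00 over 55 genes. Where 1.79% of all genes were higher at an unadjusted p under 0.05, 2 potassium channels reached that p, both positive. These were Kcnk2 and Kcna3 (Kv1.3), at 3.69, 3.91 and 3.81 in the acid muscle samples and 3.37, 3.19 and 3.37 in the saline muscle samples. All acid muscle values of Kcna3 were above all saline muscle values, by 0.49 (0.21 to 0.77), and the difference ran from 0.43 to 0.54 without each array in turn. It was the 1 potassium channel higher without overlap, while 3 of the 55 were lower without overlap. Over all genes 3.98% were higher and 2.94% lower without overlap. Of 21 measured calcium and HCN channels 1 was at an unadjusted p under 0.05, where 1.06% of all genes were lower at that p. It was Cacna1c (Cav1.2), at 4.61, 4.03 and 4.68 in the acid muscle samples and 4.97, 5.12 and 4.90 in the saline muscle samples, a difference of -0.56 that was -0.35 without acid muscle replicate 2. Cacna2d1, the gabapentin-binding subunit, differed by -0.81 (-1.64 to 0.03), and by -0.64 on its other probe set. Its difference was -0.47 without acid muscle replicate 2.

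The markers of neuron types separated into a group that was higher and 3 that were lower by value. Large myelinated and proprioceptor markers had a median difference of 0.20, with 24 of 31 positive, against a median of 0.02 and 53.7% positive over all genes. At an unadjusted p under 0.05 there were 3 of these markers, all higher, where 1.79% of all genes were higher at that p. Markers of peptidergic nociceptors had a median of -0.29 (13 of 15 negative), those of non-peptidergic and itch neurons -0.31 (21 of 25 negative) and those of C-fibre touch neurons -0.20 (11 of 14 negative). The lists share members, such as Gfra2, which stands on both of the last named. Without overlap, 4 of the 31 large myelinated markers were higher in acid muscle, as were 3.98% of all genes. Lower without overlap were 2 of 15 peptidergic, 3 of 25 non-peptidergic and itch and 3 of 14 C-fibre touch markers, against 2.94% of all genes. No marker of any of these lists passed the adjusted threshold. In RNA from many cells, fewer cells of a type and less RNA per cell cannot be told apart.

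Il31ra, the receptor subunit specific to the itch cytokine interleukin 31, was at 3.95, 4.48 and 3.45 in the acid muscle samples and 4.65, 5.61 and 4.64 in the saline muscle samples. Every acid muscle value lay below every saline muscle value, by 1.00 on average (interval -1.57 to -0.43), and the difference ran from -1.27 to -0.68 without each array in turn. Osmr, the other subunit of the same receptor, was at 4.71, 4.78 and 4.34 in the acid muscle samples and 5.06, 5.69 and 5.10 in the saline muscle samples, also without overlap, a difference of -0.67 (-1.13 to -0.21). Cysltr2, a leukotriene receptor of the same small neurons, was dim and differed by -0.48, with overlap, or -0.28 without saline muscle replicate 2. Mrgpra3 and Mrgprd, receptors of other itch and non-peptidergic neurons, were not apart in the same way, with differences of -0.16 and -0.12. Limma's unadjusted p was 0.00198 for Il31ra and 0.00735 for Osmr, and their adjusted p was 1.00.

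Th (tyrosine hydroxylase), a marker of C-fibre touch neurons, was at 5.75, 5.09 and 5.16 in the acid muscle samples and 5.82, 6.79 and 6.05 in the saline muscle samples. The groups did not overlap but came within 0.1 of each other, and the difference was -0.88 (-1.54 to -0.22). Zfp521, a zinc-finger gene of the same neurons, was at 3.82, 3.74 and 3.80 in the acid muscle samples and 4.04, 4.17 and 4.10 in the saline muscle samples, a difference of -0.32. Adcyap1, which encodes the peptide PACAP, was the peptidergic gene set furthest apart. It was at 3.83, 3.82 and 3.87 in the acid muscle samples and 5.03, 4.23 and 4.55 in the saline muscle samples, a difference of -0.76 (-1.34 to -0.19). Tac1, which encodes substance P, differed by -0.56 (-1.18 to 0.07), or -0.36 without saline muscle replicate 1, with 1 acid muscle value level with the lowest saline muscle value.

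Necab2, a neuronal calcium-binding protein, had the smallest p of the large-neuron markers. It was at 4.51, 4.58 and 4.46 in the acid muscle samples and 4.06, 4.16 and 3.84 in the saline muscle samples, without overlap, a difference of 0.49 (0.23 to 0.76). Shox2, a transcription factor of touch neurons in mice, was at 3.58, 3.57 and 3.21 in the acid muscle samples and 3.13, 2.67 and 3.07 in the saline muscle samples, a difference of 0.50. Esrrg, a nuclear receptor, was at 4.89, 4.89 and 4.99 in the acid muscle samples and 4.48, 4.85 and 4.46 in the saline muscle samples, a difference of 0.33. The best-known markers of this class did not separate the groups. Pvalb (parvalbumin), of proprioceptors, was at 5.52, 4.28 and 5.74 in the acid muscle samples and 5.41, 3.93 and 5.04 in the saline muscle samples, a difference of 0.39 (-0.55 to 1.32) that was -0.04 without saline muscle replicate 2. Runx3, Ntrk3 and Etv1, which specify or support proprioceptors, differed by 0.35, 0.09 and -0.03, each with overlap.

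**Figure D4:**
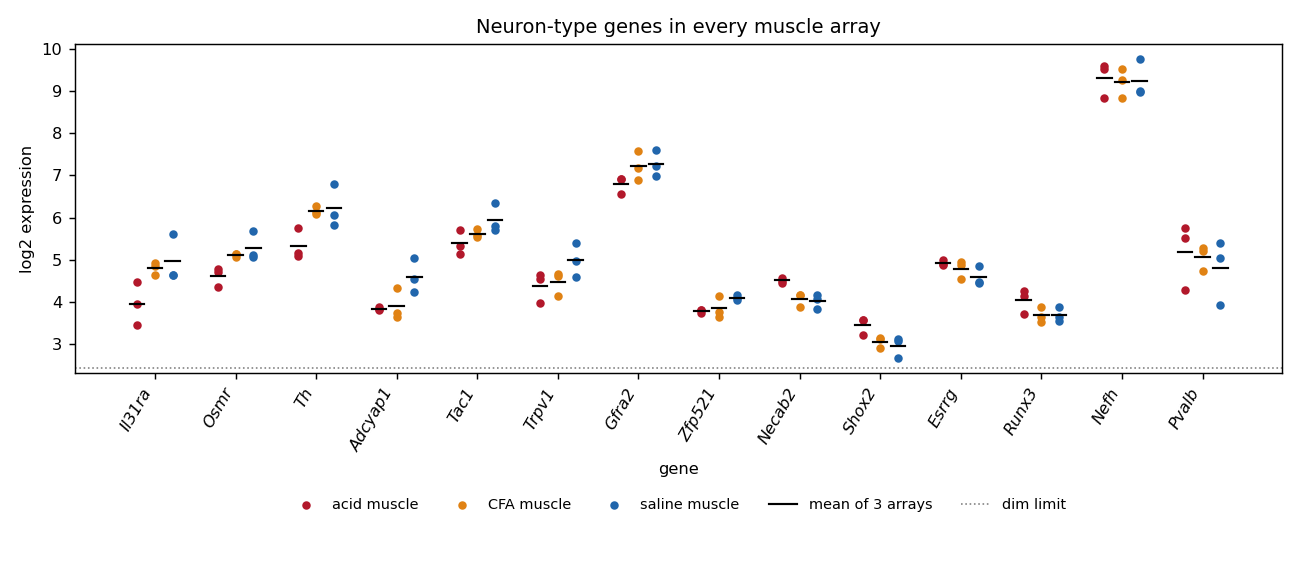
Log2 expression (y axis) of 14 genes of sensory neuron types (x axis) in each acid muscle, CFA muscle and saline muscle array, with a bar at the mean of 3 arrays and the dim limit dotted. Acid muscle points lie below all saline muscle points for Il31ra, Osmr, Th, Adcyap1, Gfra2 and Zfp521 and above them for Necab2, Shox2 and Esrrg, while Nefh and Pvalb overlap. The 14 genes were picked for display, and over all genes tested 6.92% had groups that did not overlap.

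Glial genes also stood apart by value. Markers of Schwann cells and myelin had a median difference of 0.25 with 20 of 23 positive, and those of satellite glia 0.16 with 14 of 21 positive, both with 0 genes at an unadjusted p under 0.05. The satellite glia median was 0.30 without acid muscle replicate 2 and -0.03 without acid muscle replicate 3. The mean level of the Schwann list was 5.48, 4.31 and 5.15 in the acid muscle samples and 5.05, 4.65 and 4.62 in the saline muscle samples, so that acid muscle replicate 2 was the lowest of the 6 arrays and acid muscle replicate 1 the highest. Its median difference was 0.60 without acid muscle replicate 2 and -0.01 without acid muscle replicate 1. The mean level of the peptidergic list was 4.43, 4.29 and 4.33 in the acid muscle samples and 4.67, 4.70 and 4.46 in the saline muscle samples, without overlap, and its median difference ran from -0.37 to -0.11 without each array in turn. The mean level of the non-peptidergic and itch list overlapped, at 4.81, 4.61 and 4.93 in the acid muscle samples and 5.00, 5.41 and 4.76 in the saline muscle samples. Its median difference of -0.31 was -0.12 without saline muscle replicate 2 and -0.17 without acid muscle replicate 2. The mean level of the C-fibre touch list, like that of the peptidergic list, did not overlap. It was at 4.49, 4.55 and 4.52 in the acid muscle samples and 4.70, 4.84 and 4.64 in the saline muscle samples. The median difference of the C-fibre touch list was -0.12 without acid muscle replicate 1 and -0.28 without saline muscle replicate 3. For the large myelinated list the mean was 5.39, 5.25 and 5.90 in acid muscle, against 5.56, 5.19 and 5.26 in saline muscle, and its median difference was -0.03 without acid muscle replicate 3. The part of glial RNA in the neuron-type values was not tested.

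Genes of neuronal activity and inflammation were mostly level. Immediate early genes had a median difference of 0.06 over 37 genes, with 3 at an unadjusted p under 0.05, all positive, where 1.79% of all genes were higher at that p. Nr4a2, an activity-regulated nuclear receptor, was at 5.59, 4.35 and 4.79 in the acid muscle samples and 4.56, 4.07 and 3.92 in the saline muscle samples, a difference of 0.72 (0.03 to 1.42) between overlapping groups that was 0.38 without acid muscle replicate 1. Nr4a3, its relative, was at 2.62, 2.53 and 2.78 in the acid muscle samples and 2.25, 2.30 and 2.14 in the saline muscle samples, close to the dim limit and without overlap, and Sik1, a kinase induced by cAMP, differed by 0.34. Atf3, the injury-induced transcription factor, was at 6.64, 5.79 and 5.80 in the acid muscle samples and 6.85, 6.65 and 5.41 in the saline muscle samples, a difference of -0.23 (-1.06 to 0.61). The nerve injury and regeneration list had a median of -0.01 over 40 genes.

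Inflammatory cytokines and related enzymes had 29 of 36 positive differences, but the median was 0.09 and 20 of the 36 were above the dim limit. Ptgs2 (COX-2) and Ptges, consecutive enzymes in the synthesis of prostaglandin E2, were both among the 3 at an unadjusted p under 0.05, all higher, against 1.79% of all genes. The other gene of the 3, Ccl8, had a mean of 1.95 over the 6 arrays, below the dim limit. Ptgs2 was at 3.10, 2.98 and 2.62 in the acid muscle samples and 2.24, 2.36 and 2.66 in the saline muscle samples, a difference of 0.48 (0.14 to 0.82) with saline muscle replicate 3 above acid muscle replicate 3. It was thus near the dim limit of 2.44, and below it in saline muscle replicates 1 and 2. Ptges was at 3.11, 3.29 and 3.11 in the acid muscle samples and 2.82, 2.76 and 2.68 in the saline muscle samples, without overlap, a difference of 0.41 (0.15 to 0.68). The interferon response list had a median of 0.03 over 41 genes. Its smallest p belonged to Gbp7, an interferon-induced GTPase, at 3.85, 3.77 and 3.35 in the acid muscle samples and 4.39, 4.39 and 4.38 in the saline muscle samples, a difference of -0.73 (-1.20 to -0.25). Of the 41 genes 3 were lower without overlap, where 2.94% of all genes were. Ifnar1, a subunit of the type I interferon receptor, is not on that list but on the list of inflammatory mediator receptors. It differed by -0.46 (-0.87 to -0.04), also without overlap. On its list of 54 genes 3 were higher and 3 lower without overlap.

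Purine, opioid, glutamate and growth factor receptors held few genes apart. P2ry2, a receptor for ATP and UTP, was at 3.21, 3.43 and 3.19 in the acid muscle samples and 2.70, 2.91 and 2.93 in the saline muscle samples, a difference of 0.43 (0.08 to 0.78). Galr2 and Drd2, receptors for galanin and dopamine, differed by 0.57 and 0.30 but were around the dim limit, and Galr2 differed by 0.37 without acid muscle replicate 2. Of 32 glutamate and GABA receptors and 22 genes of neurotrophin and GDNF signalling, 0 were at an unadjusted p under 0.05. The smallest p in the neurotrophin and GDNF list belonged to Sort1, Alk, Met and Bdnf. Sort1, a sorting receptor that binds proneurotrophins, differed by 0.41, the receptor kinase Alk by 0.29 and the neurotrophin Bdnf by 0.24, each higher in acid muscle without overlap, as were 3.98% of all genes. Met differed by -0.25 with overlap and was below the dim limit. Over the 22 genes of this list the median difference was -0.07, with 10 positive and 12 negative. Gfra2, the neurturin receptor of non-peptidergic neurons, was at 6.92, 6.56 and 6.92 in the acid muscle samples and 7.23, 7.59 and 6.98 in the saline muscle samples, without overlap, with a difference of -0.46 (-1.12 to 0.19), or -0.30 without saline muscle replicate 2.

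Genes of energy metabolism and translation followed single arrays. Subunits of the mitochondrial respiratory chain had a median difference of 0.15, with 52 of 71 positive and 4 at an unadjusted p under 0.05, all positive, against 1.79% of all genes. That median was 0.45 without acid muscle replicate 2 and -0.17 without acid muscle replicate 3. Ndufa6, of complex I, was at 5.43, 4.58 and 6.54 in the acid muscle samples and 4.96, 4.18 and 4.68 in the saline muscle samples, a difference of 0.91 that was 0.40 without acid muscle replicate 3. Cytosolic ribosomal proteins had a median of 0.11, with 39 of 52 positive, and it was 0.40 and -0.08 without acid muscle replicates 2 and 3 in turn. In all, 9 of the 35 lists kept the sign of their median without each array in turn, where 44.9% of single genes kept theirs. Among the 9 were the 3 lists of small neurons, some of which share members, but also the mechanosensitive list, with a median of -0.00. A kept sign is therefore no support for a list, and 0 lists held a gene past the adjusted threshold.

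**Figure D5:**
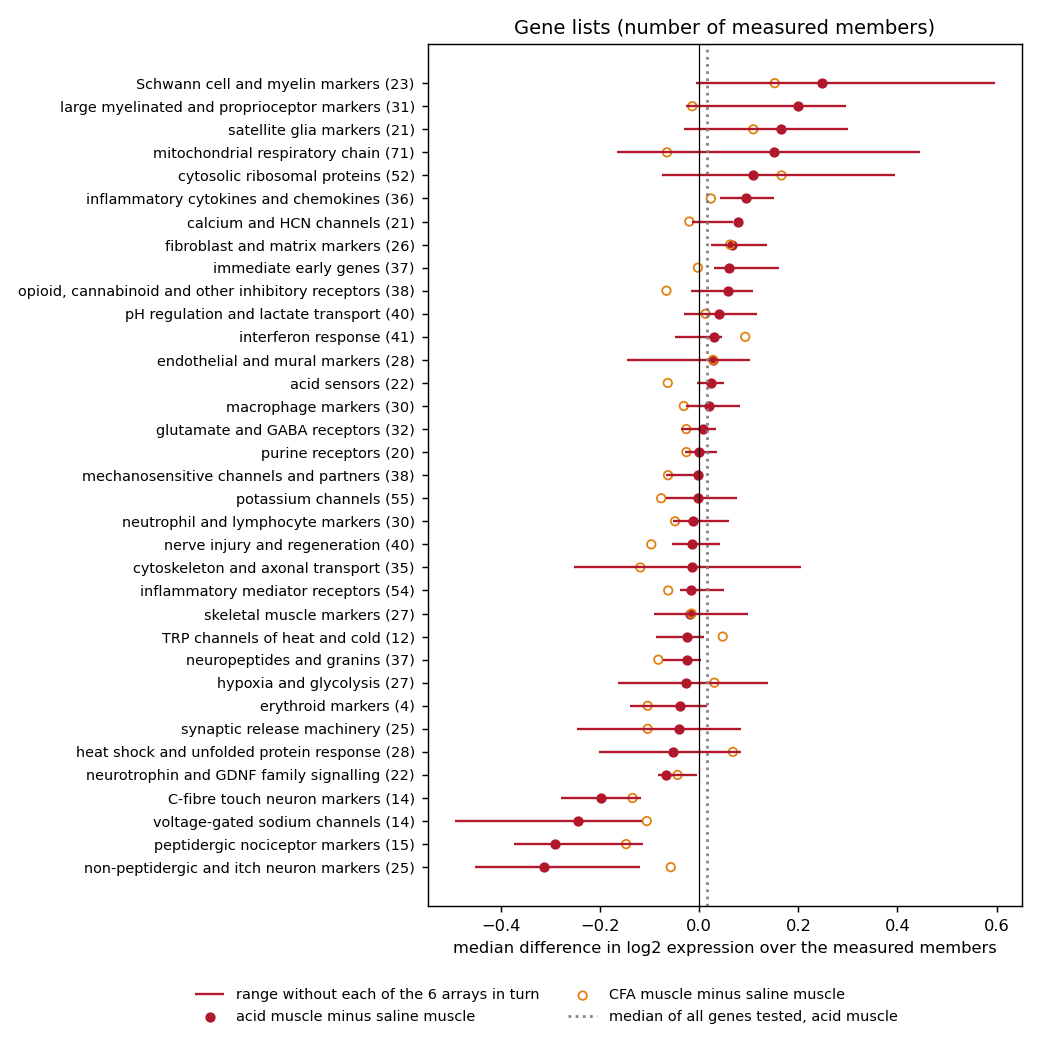
Median difference in log2 expression (x axis) over the measured members of 35 gene lists (y axis, with the number of members): acid muscle minus saline muscle, with the range of the median without each of the 6 arrays in turn, and CFA muscle minus saline muscle as open points. Most medians lie within 0.1 of 0; the lists of small neurons and of sodium channels lie lowest, and the Schwann cell list, with a wide range, lies highest.

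The genes with the smallest p over the whole table were not of a single kind. Rabggtb, a subunit of the enzyme that attaches lipid anchors to Rab GTPases, came at the top. It was at 2.67, 2.62 and 2.63 in the acid muscle samples and 3.30, 3.17 and 3.21 in the saline muscle samples, without overlap, with a difference of -0.59 (SE 0.126). Lhfpl5, part of the mechanotransduction complex of inner ear hair cells, was at 4.14, 4.22 and 3.98 in the acid muscle samples and 4.47, 4.79 and 4.86 in the saline muscle samples, a difference of -0.60 (-0.91 to -0.28). Its groups did not overlap, and it was on no list. Zfp503, a zinc-finger repressor, was at 4.17, 4.76 and 4.42 in the acid muscle samples and 3.52, 3.08 and 4.05 in the saline muscle samples, a difference of 0.90. Lgi4, secreted by glia and needed for myelination of peripheral nerve, was at 3.27, 3.34 and 3.33 in the acid muscle samples and 3.01, 2.39 and 2.84 in the saline muscle samples, a difference of 0.57. The other genes among these 20 included Eras (-0.64), a Ras-like GTPase, Dclre1b (0.49), a nuclease of telomeres, Phpt1 (0.55), a histidine phosphatase, Tmem126b (-0.97), an assembly factor of complex I, and Sgcd (-0.66), a sarcoglycan.

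Among genes whose groups did not overlap, those with the largest differences above the dim limit were likewise mixed. Kctd16, an auxiliary subunit of GABA-B receptors, was at 5.03, 5.18 and 4.25 in the acid muscle samples and 6.03, 6.41 and 5.25 in the saline muscle samples, 2.11-fold lower in acid muscle. The interval of its difference ran from -1.78 to -0.37. Mrps10, of the small subunit of the mitochondrial ribosome, was at 5.38, 5.09 and 4.70 in the acid muscle samples and 4.40, 4.47 and 3.28 in the saline muscle samples, a difference of 1.01 that was 0.62 without saline muscle replicate 3. Lamtor1, which anchors a nutrient-sensing complex to lysosomes, differed by 1.00, and by 0.56 on its other probe set, and its difference was 0.53 without saline muscle replicate 3. Others were Mfsd11 (-1.04), Mdm2 (-0.81), the ubiquitin ligase of p53, and Clcn5 (-0.80), a chloride-proton exchanger of endosomes, on the lower side, and Npm1 (0.86, or 0.47 without saline muscle replicate 3), Polr2j (0.74, or 0.48 without acid muscle replicate 3), Bmp8b (0.73), Atn1 (0.71) and Slc19a2 (0.70), a thiamine transporter, on the higher side.

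The CFA muscle samples, of the same kind of neuron, were set beside these values. The acid and CFA differences share the saline muscle arrays and so move together when those arrays move. Lhfpl5 differed by -0.60 for acid and -0.54 for CFA, Kcna3 by 0.49 and 0.46, Adcyap1 by -0.76 and -0.70, and Mrps10 by 1.01 and 0.93. Il31ra differed by -1.0 for acid and -0.16 for CFA, Th by -0.88 and -0.06, Gbp7 by -0.73 and 0.08, Necab2 by 0.49 and 0.05, and Ptgs2 by 0.48 and -0.09. The direct comparison of CFA muscle with acid muscle does not use the saline arrays. It does use the acid muscle arrays by whose values these genes were named, so differences of opposite sign were likely beforehand. It is therefore no separate support for their acid values. It gave a difference of 0.85 for Il31ra, 0.82 for Th, 0.81 for Gbp7, -0.44 for Necab2 and -0.57 for Ptgs2, all with an adjusted p of 1.00 in limma. Asic3 was at 4.34, 4.12 and 4.53 in the CFA muscle samples, below all 3 acid muscle values, and its difference between CFA muscle and acid muscle was -0.75, with an unadjusted limma p of 0.048 and an adjusted p of 1.00.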

How the data were processed

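RNA of sorted neurons was measured on 15 arrays, 3 in each of 5 groups. Deposited were log2 values for each probe set, as normalized by the authors. RMA and Partek were used, per the submitters' processing notes, which give no version, and base 2 was inferred from their range. No further scaling was applied.

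Of 35556 probe sets, 21789 had 1 gene symbol, 1621 had several and 12146 were not named here. Where several probe sets named a gene (999 genes), the brightest on average over the 15 arrays stood for it, which left 19938 genes. No gene was filtered out. Groups came from the sample titles. Differences were tested two-sided with limma 3.58.1 in R 4.3.3, with 5 group means over 15 arrays (10 residual degrees of freedom) and Benjamini-Hochberg adjustment over all genes, threshold 0.05. The number of arrays limits the precision. The labels do not tie samples to animals, so p-values measure the spread between these samples. The test was tested on simulated data whose noise was independent between genes and between arrays. That noise held no shift shared by many genes of an array, so the simulation does not cover single arrays that stand apart.

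Lists name 1089 genes, of which 977 were measured. The comparison, lists and rule for named genes were chosen with earlier results of these data known. Named by rule were the 20 genes with the smallest p (fewer than 20 passed), up to 8 genes a direction with the largest difference among non-overlapping genes above the dim limit, up to 4 genes a list with the smallest p, and a fixed set of acid sensors, mechanosensitive channels and markers. Predicted and receptor cluster genes were left out of the rule, and Gas5, Rmrp, Armh4, Slc35e3 and Gm4884 were chosen after their values were seen. Alternatives were other scalings, other samples in the fit, array weights, an intensity trend, the mean of all probe sets, a filter on dim genes, a threshold of 0.1, the replicate number as a block, and leaving out arrays.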

Additional observations from a re-analysis of the deposited data

How the results depend on the processing

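The count of 0 genes past the adjusted threshold, in each of the 3 comparisons of muscle groups, was 0 in every alternative run, also at an adjusted p under 0.1. At an unadjusted p under 0.05 the acid comparison held 568 genes. It held 1046 with quantile normalization, 915 with cyclic loess, 1447 with array SD in the model, 995 without saline paw replicate 1, 1215 with array weights and 292 with dim genes left out, and between 458 and 795 without each acid or saline muscle array in turn. The split into higher and lower was 356 and 212 as deposited, 237 and 395 with the arrays centred, 495 and 551 with quantile normalization, and 422 and 493 with cyclic loess. Groups did not overlap in 1380 genes, in 2534 to 3991 without each array in turn and in 6482 without both acid muscle replicate 2 and saline muscle replicate 3, an alternative chosen after seeing the data, since fewer arrays overlap less often by construction. Of 205 named genes 160 kept the sign of their difference in every alternative. Many of them were named for a small p or for groups without overlap in these same arrays. A gene without overlap keeps its sign when an array is left out, so a high share was likely beforehand. Over all genes 44.9% kept their sign without each of the 6 arrays in turn. Of 630 recomputed list medians, 44 moved by 0.1 or more. The 630 include the fits on fewer groups, the fit without saline paw replicate 1 and the replicate block. These cannot change a difference of group means, so the share that moved understates how far the medians depend on scaling and single arrays. The cause of the other shifts was not tested. The deviations of acid and saline samples that share a replicate number had correlations of 0.252, -0.0866 and -0.196. Those of samples with unlike numbers ran from -0.379 to 0.372. With 3 arrays in a group these values cannot tell whether the numbers pair the samples, and the labels do not say. With the replicate block the acid comparison in limma held 0 genes past the threshold, with 312 higher and 181 lower at an unadjusted p under 0.05.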

Other observations

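Igfbp5, a binding protein of insulin-like growth factors, was at 4.84, 5.48 and 5.57 in the CFA muscle samples and 4.43, 3.64 and 4.40 in the saline muscle samples, a difference of 1.15, and its difference for acid was 0.52. Col1a2, a collagen of fibroblasts, was at 5.27, 5.22 and 5.17 in the acid muscle samples, at 5.52, 5.23 and 4.94 in the CFA muscle samples and at 4.74, 4.70 and 4.69 in the saline muscle samples, so that every acid and CFA value lay above every saline value. Both differences of Col1a2 use the same saline muscle arrays and so are not separate results, and its acid difference was 0.51 (interval -0.01 to 1.03). On the fibroblast and matrix list, which holds both genes, 16 of 26 acid differences were positive and 10 negative, with a median of 0.07. Igfbp5 and Col1a2 were its 2 genes without overlap for acid, both higher, as were 3.98% of all genes. Neither gene had an adjusted p below the threshold in limma.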
